A study of Mus musculus with 16 samples.

Results

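The genes described here encode 9 proteins of the cell surface: the adhesion molecules Vcam1, Icam1 and Esam, the sialomucin Pdpn, the proteoglycan Sdc4, the leucine-rich repeat proteins Flrt3 and Amigo2, the chemokine scavenger Ackr1 and the complement inhibitor Cd59a. They were chosen by name out of 16593 genes with a named probe, because their signals had differed between the groups on these same arrays. All levels and differences of the 9 genes are therefore descriptions. Which of them passed the threshold of the fit over all probes is stated beside the share of all probes that did, and nothing is read from it. Illumina mouse Ref-8 BeadChips read the RNA of cultured marrow cells on 16 arrays, 4 in each of 4 groups.

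All cells came from 8-week-old mice, carried c-Kit, the stem cell factor receptor of blood progenitors, and were grown in 20% fetal calf serum with IL-3, IL-6 and SCF. Wild-type cells came from C57Bl/6 mice. Booreana cells came from a strain with a point mutation in Myb that weakens the binding of the transcription factor c-Myb to its coactivator p300, and the labels name no background strain for it. Cells of each genotype received either the MSCV-I-GFP retrovirus, which makes green fluorescent protein alone and is called the control vector here, or MSCV-AML1-ETO9a-I-GFP, which also makes AML1-ETO9a, a short form of the RUNX1-ETO fusion protein of acute myeloid leukaemia. Crossing genotype and vector gave the 4 groups. Cells positive for both GFP and c-Kit were sorted 48 hours after transduction, so every group had passed through a retroviral transduction and the same sort. The oncogene was driven by a retroviral promoter in a mixed population of transduced cells, not from its chromosomal site. The study asks whether the contact between c-Myb and p300 is needed for leukaemia oncogenes to act. The labels name 4 Booreana mice, give no number of wild-type mice and do not say that each array was a separate mouse, so errors and adjusted p-values reflect only how far arrays of a group lay apart, which may be technical.

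Adhesion molecules of the immunoglobulin superfamily such as VCAM1 and ICAM1 are ligands for integrins: VCAM1 binds integrin alpha4 beta1, by which progenitors are held in the marrow, and ICAM1 binds the beta2 integrins of leukocytes. Syndecans and FLRT and AMIGO proteins link cells to matrix and to each other, ACKR1 (the Duffy antigen) binds inflammatory chemokines without signalling, and CD59 blocks the last step of complement attack. Several of these genes are also made by endothelial or stromal cells of the marrow, and ICAM1 and VCAM1 are classic targets of inflammatory signalling.

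Signals are given as log2 of the background-corrected, quantile-normalized intensity, and a probe is called detected on an array at a detection p under 0.05. The 9 genes had 11 probes. Flrt3 had 3 of them, and the third was detected on 0 of 16 arrays, so that 10 probes, covering 9 of 9 genes, entered the fit across all 12760 tested probes. Median unnormalized intensity lay between 189 and 250 on the 16 arrays, and 39.5% to 46.7% of probes were detected. Booreana control replicate 2 stood apart, with a mean correlation of 0.845 with the other arrays against 0.931 to 0.955 for the rest. For several results the value or call without it is given too. The arrays read bulk RNA, so fewer cells of a type and less RNA per cell cannot be told apart.

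The 9 genes differed in the group where they were highest, and promoters of 4 that contrast in this are shown for reading beside the values. By group means, Sdc4 and Pdpn were highest in wild-type AML1-ETO9a cells, while Cd59a and Ackr1 were highest in Booreana AML1-ETO9a cells. For Sdc4 the AML1-ETO9a arrays of the genotypes overlapped, and their difference was not called. The windows run from 250 bases before to 50 bases after the annotated start, 5′ to 3′ on the gene's strand, from RefSeq on GRCm38.p6, in which 7 of the 9 genes had an entry (Vcam1 and Esam did not). Capitals mark matches on either strand to the MYB core AACNG, the RUNX core TGTGGT and the NF-kB consensus.
Sdc4, chr2:164443139-164443438, minus strand: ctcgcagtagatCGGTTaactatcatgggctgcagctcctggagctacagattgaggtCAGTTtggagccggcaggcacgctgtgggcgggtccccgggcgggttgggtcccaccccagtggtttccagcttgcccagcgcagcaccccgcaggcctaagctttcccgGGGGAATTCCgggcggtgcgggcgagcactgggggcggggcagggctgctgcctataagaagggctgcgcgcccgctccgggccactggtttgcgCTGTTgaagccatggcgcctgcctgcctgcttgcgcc
Pdpn, chr4:143299515-143299814, minus strand: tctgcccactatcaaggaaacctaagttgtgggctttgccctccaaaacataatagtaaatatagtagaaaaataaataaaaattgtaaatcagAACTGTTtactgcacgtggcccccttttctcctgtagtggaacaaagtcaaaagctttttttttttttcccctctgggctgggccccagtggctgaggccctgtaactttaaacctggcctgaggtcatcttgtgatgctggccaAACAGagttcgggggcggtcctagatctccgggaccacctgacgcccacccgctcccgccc
Cd59a, chr2:104095551-104095850, plus strand: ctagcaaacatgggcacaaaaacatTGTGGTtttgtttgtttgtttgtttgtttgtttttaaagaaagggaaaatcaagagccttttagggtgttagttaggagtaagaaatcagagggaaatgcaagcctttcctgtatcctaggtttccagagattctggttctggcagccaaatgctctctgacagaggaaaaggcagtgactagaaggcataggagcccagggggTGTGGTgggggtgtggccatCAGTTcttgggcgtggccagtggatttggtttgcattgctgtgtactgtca
Ackr1, chr1:173333454-173333753, minus strand: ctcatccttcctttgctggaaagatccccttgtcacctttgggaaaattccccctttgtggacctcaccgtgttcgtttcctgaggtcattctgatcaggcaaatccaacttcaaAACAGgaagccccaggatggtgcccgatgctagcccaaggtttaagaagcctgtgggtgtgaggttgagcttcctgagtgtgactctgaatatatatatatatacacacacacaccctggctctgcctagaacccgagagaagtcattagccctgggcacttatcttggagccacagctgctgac
The RUNX core was found in 1 of the 7 windows, that of Cd59a, which held it 2 times, at 225 and 21 bases before the start. Of all 32851 promoter windows in the table, 16.8% held it. The MYB core was found in 6 of 7, against 80.3% of all windows, and the exception was Amigo2. The NF-kB consensus was found in 1 of 7, that of Sdc4, 82 bases before the start, against 8.5% of all windows. The AP-1 motif TGANTCA was in 0 of 7 (7.8% of all windows) and the ETS core GGAAG in 3 of 7 (71.4% of all windows): Icam1, Flrt3 and Ackr1. A pair of the MYB matches of Pdpn overlap on opposite strands, and the MYB match of Ackr1 shares its last base with an ETS match. These are matches of letters in a short window and do not show binding.

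When wild-type cells carried AML1-ETO9a, 8 of the 9 genes differed from the control vector at an adjusted p under 0.05, where 4.32% of all tested probes did. The 7 higher ones were Sdc4, Flrt3, Pdpn, Amigo2, Cd59a, Esam and Icam1 (2.47% of all tested probes were called higher), the 1 lower was Vcam1 (1.85% lower), and Ackr1 was not called. In Booreana cells 7 of the 9 were called, all higher, where 1.65% of all tested probes were called and 1.05% were higher; Vcam1 and Sdc4 were not called. Without Booreana control replicate 2 these counts were 8 and 6. With a replicate block within each genotype they stayed at 8 and 7, while the share of all tested probes called went to 7.52% and 3.55%. The rule that picked the genes used these contrasts, so nothing is read from the counts. The median difference of the 9 genes was 2.37 in wild-type and 2.04 in Booreana cells on the log2 scale, against -0.0047 and -0.03 over all tested probes.

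**Figure D1:**
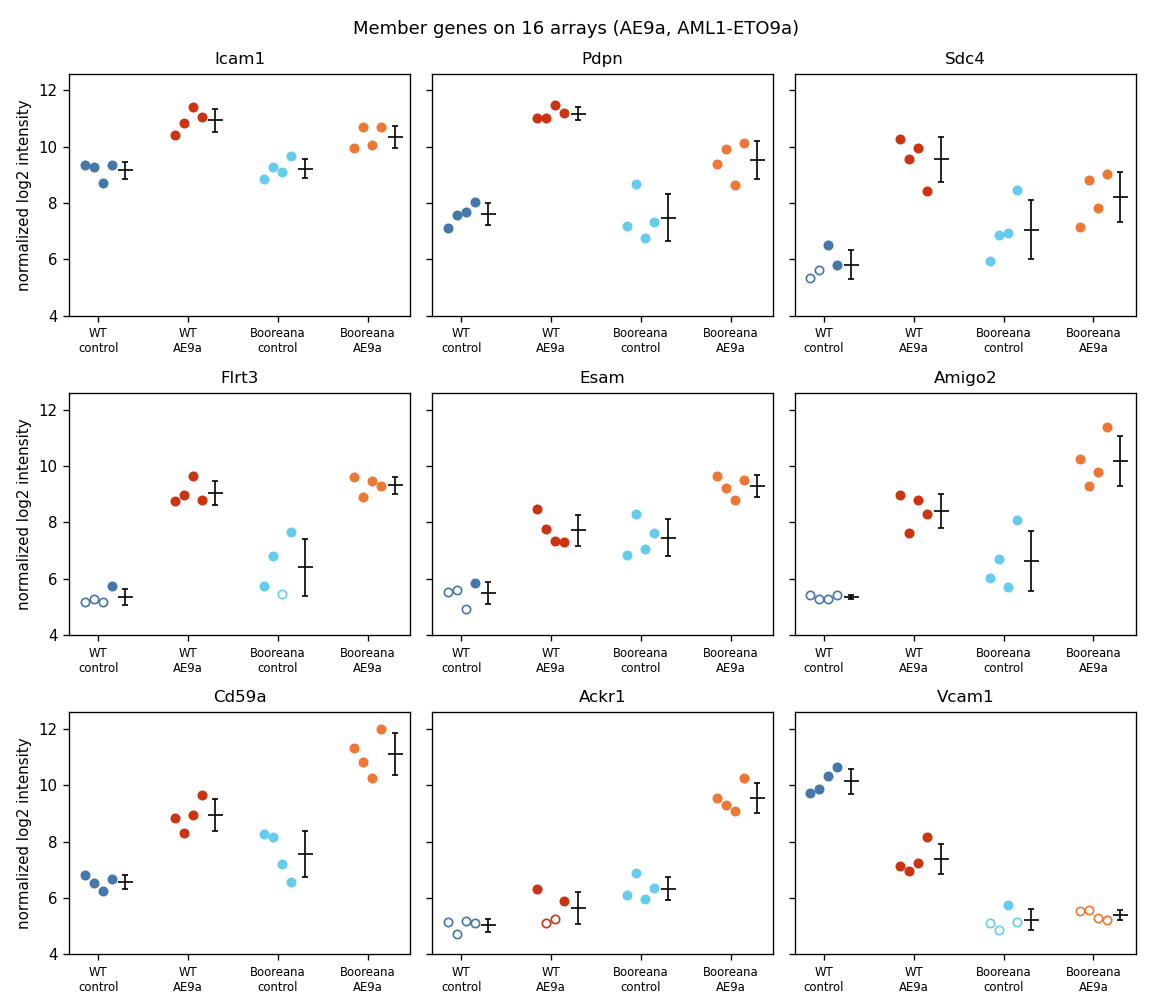
Normalized log2 intensity of the brightest probe of each gene on each of the 16 arrays, by group (AE9a, AML1-ETO9a). Filled points were detected, open points were not, and bars give the mean and SD of 4 arrays. Icam1, Pdpn and Sdc4 have their highest mean in wild-type AE9a cells, Esam, Amigo2, Cd59a and Ackr1 in Booreana AE9a cells, and Vcam1 in wild-type control cells.

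Vcam1 encodes the ligand of integrin alpha4 beta1 on stromal, endothelial and some macrophage cells. On wild-type arrays its probe read 9.72, 9.85, 10.32 and 10.65 with the control vector and 7.14, 6.96, 7.23 and 8.17 with AML1-ETO9a. On Booreana arrays it read 5.11, 4.86, 5.74 and 5.15 with the control vector and 5.55, 5.56, 5.28 and 5.21 with AML1-ETO9a. All wild-type control arrays lay above all wild-type AML1-ETO9a arrays, which in turn lay above all Booreana arrays, and the Booreana groups overlapped each other. The deposited intensities show the same order: 1084, 905, 1434 and 1704 in wild-type control cells, 301, 317, 349 and 377 with AML1-ETO9a, 179 to 246 in Booreana control cells and 195 to 235 with AML1-ETO9a. Vcam1 was detected on every wild-type array, on 1 of 4 Booreana control arrays and on 0 of 4 Booreana AML1-ETO9a arrays. With AML1-ETO9a in wild-type cells, Vcam1 was 6.78-fold lower, a log2 difference of -2.76 ± 0.28 (SE). Between the genotypes with the control vector the difference was -4.92 ± 0.28, the size of which rests on a Booreana level at the background. With AML1-ETO9a the wild-type level was at least 3.40-fold above the Booreana one (means 7.37 ± 0.54 and 5.40 ± 0.18, SD, n = 4). The Booreana response read 0.18 ± 0.28, and a fall from a signal already at background could not have been read.

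Icam1 encodes the ligand of the beta2 integrins. It read 9.35, 9.28, 8.73 and 9.35 on wild-type control arrays and 10.42, 10.86, 11.42 and 11.05 with AML1-ETO9a. In Booreana cells it read 8.85, 9.27, 9.11 and 9.66 with the control vector and 9.95, 10.69, 10.07 and 10.69 with AML1-ETO9a. In each genotype every AML1-ETO9a array lay above every control array, and the 2 genotypes overlapped with either vector. The difference was 1.76 ± 0.26 in wild-type cells (3.39-fold) and 1.13 ± 0.26 in Booreana cells (2.18-fold). The Booreana minus wild-type differences were 0.05 ± 0.26 with the control vector and -0.59 ± 0.26 with AML1-ETO9a, and neither was called. The call in Booreana cells was lost without any 1 of 9 arrays (wild-type control replicates 1 and 2, wild-type AML1-ETO9a replicate 2, Booreana control replicates 1, 2 and 3, and Booreana AML1-ETO9a replicates 2, 3 and 4), with differences of 1.00 to 1.27 over all arrays left out in turn, and without normalization between arrays.

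Esam encodes an immunoglobulin superfamily molecule of endothelial tight junctions and platelets that is also known as a surface mark of mouse blood stem cells. Its probe read 5.53, 5.61, 4.93 and 5.86 on wild-type control arrays, of which 1 was detected, and 8.47, 7.75, 7.34 and 7.29 with AML1-ETO9a. On Booreana arrays it read 6.83, 8.29, 7.05 and 7.62 with the control vector and 9.65, 9.24, 8.79 and 9.52 with AML1-ETO9a. Booreana AML1-ETO9a arrays stood above all others and wild-type control arrays below all others, with wild-type AML1-ETO9a and Booreana control arrays overlapping in between. AML1-ETO9a went with a difference of 2.23 ± 0.34 in wild-type and 1.85 ± 0.34 in Booreana cells (2.13 without Booreana control replicate 2). Booreana cells exceeded wild-type cells by 1.97 ± 0.34 with the control vector and 1.59 ± 0.34 with AML1-ETO9a. The first genotype difference was 0.46 and no longer called in the authors' processed values. The second lost its call without wild-type AML1-ETO9a replicate 3 or Booreana AML1-ETO9a replicate 1. The responses of the genotypes differed by -0.38 ± 0.48, by 0.35 in the authors' processed values, and with the sign also turned at an offset of 50.

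Pdpn encodes podoplanin, a sialomucin of lymphatic endothelium, stromal cells and activated macrophages that binds CLEC-2 on platelets. Wild-type arrays read 7.12, 7.59, 7.68 and 8.06 with the control vector and 11.01, 11.04, 11.48 and 11.21 with AML1-ETO9a. Booreana arrays read 7.18, 8.67, 6.76 and 7.35 with the control vector and 9.39, 9.93, 8.65 and 10.14 with AML1-ETO9a. The wild-type AML1-ETO9a arrays stood above all others with little spread (SD 0.22, n = 4), and the Booreana groups overlapped only through Booreana control replicate 2, at 8.67, and Booreana AML1-ETO9a replicate 3, at 8.65. The difference with AML1-ETO9a was 3.57 ± 0.38 in wild-type cells (11.9-fold) and 2.04 ± 0.38 in Booreana cells (4.12-fold), or 2.43 without Booreana control replicate 2. The control levels of the genotypes differed by -0.13 ± 0.38 (-0.52 without Booreana control replicate 2) and the AML1-ETO9a levels by -1.65 ± 0.38. The call on the latter was lost when replicate 3 or 4 of the wild-type AML1-ETO9a group, or replicate 1 or 3 of the Booreana AML1-ETO9a group, was left out. The responses of the genotypes differed by -1.53 ± 0.53, or by -1.14 without Booreana control replicate 2, and neither was called.

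Sdc4 encodes syndecan-4, a heparan sulfate proteoglycan of focal adhesions. In wild-type cells its probe read 5.33, 5.63, 6.52 and 5.80 with the control vector, detected on 2 of 4 arrays, and 10.26, 9.58, 9.96 and 8.42 with AML1-ETO9a. In Booreana cells it read 5.95, 6.87, 6.93 and 8.48 with the control vector and 7.17, 8.83, 7.83 and 9.05 with AML1-ETO9a. The wild-type groups were apart, while each neighbouring pair of groups in the order of the means overlapped. The wild-type difference was 3.74 ± 0.53 (13.4-fold, means 9.56 ± 0.81 and 5.82 ± 0.51, SD, n = 4). The Booreana difference was 1.16 ± 0.53, with a 95% interval from 0.03 to 2.30, and was not called. The difference between these responses was -2.58 ± 0.75, the fifth most negative of all tested probes, and was not called either. The Booreana minus wild-type differences were 1.24 ± 0.53 with the control vector and -1.34 ± 0.53 with AML1-ETO9a, and neither was called. The one with AML1-ETO9a was called only with array weights. The Booreana arrays were widely spread, with SDs of 1.05 (control vector) and 0.88 (AML1-ETO9a, n = 4 each).

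Flrt3 encodes a fibronectin and leucine-rich repeat protein that binds latrophilins and UNC5 receptors. Its brightest probe read 5.17, 5.29, 5.16 and 5.76 on wild-type control arrays, of which 1 was detected, and 8.77, 8.95, 9.66 and 8.78 with AML1-ETO9a. On Booreana arrays it read 5.72, 6.80, 5.46 and 7.65 with the control vector and 9.61, 8.88, 9.47 and 9.28 with AML1-ETO9a. The AML1-ETO9a arrays of both genotypes overlapped each other and stood clear of all control arrays. The difference was 3.69 ± 0.39 in wild-type and 2.90 ± 0.39 in Booreana cells, and 3.19 ± 0.41 and 2.58 ± 0.41 on the second probe. The genotypes differed by 1.06 ± 0.39 with the control vector, called only without Booreana control replicate 3 (without Booreana control replicate 1 on the second probe), and by 0.27 ± 0.39 with AML1-ETO9a. The third probe stayed between 4.65 and 5.40 on all 16 arrays.

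Amigo2 encodes an immunoglobulin and leucine-rich repeat protein of the same broad class, known from neurons and endothelium. On wild-type control arrays it read 5.42, 5.28, 5.29 and 5.43, none of them detected, and with AML1-ETO9a it read 8.97, 7.62, 8.79 and 8.28. Booreana arrays read 6.02, 6.68, 5.70 and 8.08 with the control vector and 10.25, 9.28, 9.79 and 11.39 with AML1-ETO9a. The order of the means was wild-type control, Booreana control, wild-type AML1-ETO9a and Booreana AML1-ETO9a, and in that order only the middle groups overlapped, through Booreana control replicate 4. In wild-type cells Amigo2 was at least 6.46-fold higher with AML1-ETO9a (means 8.42 ± 0.60 and 5.35 ± 0.08, SD, n = 4), a call that the authors' processed values did not give. In Booreana cells the difference was 3.56 ± 0.49 (11.8-fold). With AML1-ETO9a, Booreana cells exceeded wild-type cells by 1.76 ± 0.49, which was not called, although the arrays did not overlap. It was called without background correction, without normalization between arrays, with an offset of 50, in the authors' processed values, with a replicate block and with array weights, and without Booreana control replicate 4 or Booreana AML1-ETO9a replicate 2.

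Ackr1 encodes the atypical chemokine receptor of red cells and venular endothelium, which binds CC and CXC chemokines. Wild-type arrays read 5.13, 4.70, 5.19 and 5.09 with the control vector, none detected, and 6.30, 5.11, 5.25 and 5.88 with AML1-ETO9a, of which 2 were detected. Booreana arrays were all detected and read 6.12, 6.88, 5.97 and 6.36 with the control vector and 9.56, 9.29, 9.08 and 10.27 with AML1-ETO9a. The Booreana AML1-ETO9a arrays stood apart: the lowest of them, at 9.08, lay above the highest of all other arrays, at 6.88. Their difference from Booreana control arrays was 3.22 ± 0.30 (9.30-fold), and from wild-type AML1-ETO9a arrays 3.91 ± 0.30 (15.1-fold), where the wild-type level lay near the background. The wild-type means were 5.03 ± 0.22 with the control vector and 5.63 ± 0.56 with AML1-ETO9a (SD, n = 4), near the background, and no fold is given. The fitted responses of the genotypes lay 2.61 ± 0.43 apart, which was called. With wild-type cells near the background, that call does not show that the responses differed. That last call was lost without replicate 1, 3 or 4 of the wild-type control group, wild-type AML1-ETO9a replicate 2 or 3, Booreana control replicate 1 or 3, or Booreana AML1-ETO9a replicate 1, with differences of 2.37 to 2.83 over all arrays left out in turn. With the control vector Booreana cells were at least 1.52-fold above wild-type cells. That call was lost without wild-type control replicate 2, without background correction, with an offset of 50 and in the authors' processed values, where the difference was 0.24.

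Cd59a encodes a lipid-anchored protein that stops the membrane attack complex of complement. It was detected on every array and read 6.82, 6.51, 6.25 and 6.68 in wild-type control cells and 8.85, 8.30, 8.93 and 9.67 with AML1-ETO9a. In Booreana cells it read 8.28, 8.17, 7.22 and 6.57 with the control vector and 11.32, 10.83, 10.26 and 12 with AML1-ETO9a. Booreana AML1-ETO9a arrays stood above all others, wild-type AML1-ETO9a arrays came next without overlap, and the control groups overlapped through Booreana control replicate 4. The difference with AML1-ETO9a was 2.37 ± 0.41 in wild-type cells (5.17-fold) and 3.54 ± 0.41 in Booreana cells (11.6-fold). With AML1-ETO9a the genotypes differed by 2.17 ± 0.41, and with the control vector by 1.00 ± 0.41, which was called only with array weights. The wild-type call was lost in the authors' processed values, where the difference was 0.95. The responses of the genotypes differed by 1.17 ± 0.58, which was not called.

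In the authors' processed values most differences of the 9 genes were smaller. The wild-type response there was -1.53 for Vcam1, 0.55 for Esam, 2.33 for Pdpn, 1.5 for Sdc4, 1.22 for Flrt3 and 0.88 for Amigo2. The Booreana response was 0.90 for Esam, 1.04 for Pdpn, 0.42 for Sdc4, 1.17 for Flrt3, 1.77 for Amigo2, 1.38 for Ackr1 and 2.27 for Cd59a. Between the genotypes Vcam1 differed by -2.01 with the control vector and -0.44 with AML1-ETO9a, and with AML1-ETO9a Esam differed by 0.81 and Ackr1 by 1.51. The responses lay 1.57 apart for Vcam1 and 1.27 for Ackr1. All of these sizes are more than 1.5 times below those given above, whereas the Icam1 responses, at 1.35 and 0.82, moved less.

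**Figure D2:**
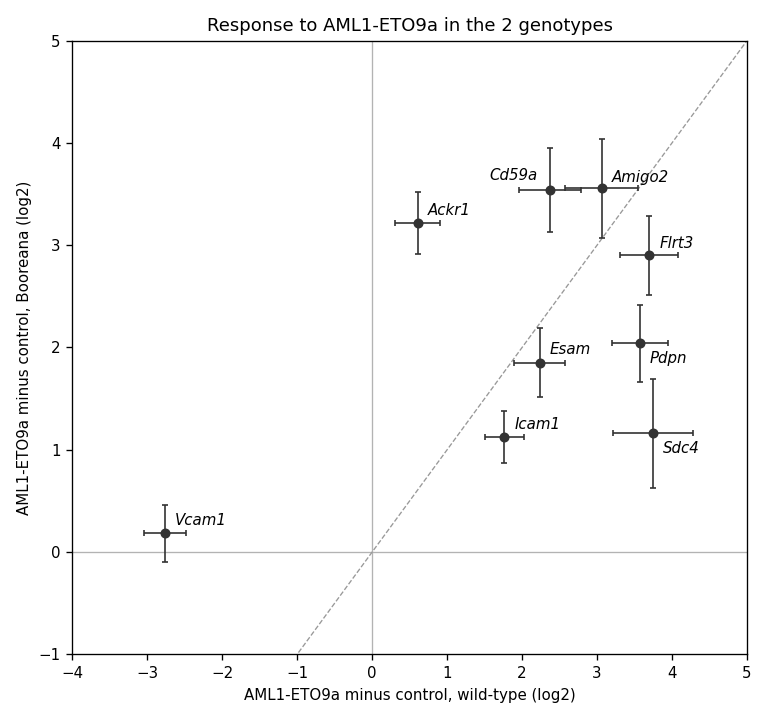
Log2 difference between AML1-ETO9a and control vector in wild-type cells (horizontal) against that in Booreana cells (vertical) for each gene, with SEs from the fit; the dashed line marks equal responses. Ackr1, at or near background in wild-type cells, lies far above the line (3.22 in Booreana cells), Sdc4 (3.74 and 1.16) and Pdpn (3.57 and 2.04) below it, and Vcam1, at background in Booreana cells, to the left of zero (-2.76 and 0.18).

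Between the genotypes with the control vector, 3 of the 9 genes were called, Esam and Ackr1 higher and Vcam1 lower in Booreana cells, where 6.35% of all tested probes were called, 3.77% higher and 2.58% lower. With AML1-ETO9a 5 of the 9 were called, where 3.74% of all tested probes were, 2.32% higher and 1.42% lower: Esam, Ackr1 and Cd59a were higher and Vcam1 and Pdpn lower in Booreana cells. That count was 3 without wild-type AML1-ETO9a replicate 3. The difference of the fitted responses was called for 2 genes, Vcam1 and Ackr1, with the higher value in Booreana cells, where 0.0862% of all tested probes were called (0.0705% higher and 0.0157% lower, and 0.29% in all with a replicate block within each genotype). For Vcam1 the Booreana level was at background with both vectors, so its call does not show that the responses differed. For Ackr1 the probe was detected on 0 of 4 wild-type control and 2 of 4 wild-type AML1-ETO9a arrays. Its wild-type response has no settled size, so its call does not show that the responses differed either. The count of 2 called genes was 1 without any of the 8 arrays named for Ackr1. Groups of 4 arrays did not overlap for 8 of the 9 genes in the wild-type response (11.3% of all tested probes), 6 in the Booreana response (6.58%), 4 between the genotypes with the control vector (11.1%) and 6 with AML1-ETO9a (9.26%). These contrasts share arrays with each other, and all of them were used in choosing the genes.

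Across the 16 arrays the signals of the 9 genes varied together to different degrees, which is given as a description because the points share group, array and normalization. Pearson's r was 0.93 between Flrt3 and Amigo2, 0.92 between Icam1 and Pdpn, 0.90 between Amigo2 and Cd59a and 0.89 between Esam and Amigo2. Ackr1 had r of 0.86 with Cd59a and 0.85 with Esam, but 0.21 with Pdpn and 0.28 with both Icam1 and Sdc4. Vcam1 ran against all 8 others, from -0.13 with Pdpn to -0.81 with Esam.

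Among all tested probes with a gene name, those most like each of the 9 genes over the 16 arrays were as follows, again as a description. Vcam1 was followed most closely by Tmc7, a transmembrane channel-like gene (r = 0.98), and Pxylp1 (0.97), and Tmc7 had means of 8.43 and 6.08 in wild-type cells with the control vector and the oncogene and 4.78 and 4.80 in the Booreana groups. Icam1 was followed by the chemokine gene Ccl2 (0.95) and the endocytic adaptor Dab2 (0.94). Pdpn was followed by Akap7 (0.94) and Dab2 (0.94), and Sdc4 by the mannose receptor Mrc1 (0.93) and the spermine oxidase Smox (0.92). Esam was followed by the histidine decarboxylase Hdc (0.96) and Gadd45g (0.95). Flrt3 was followed by the carbonic anhydrase Car4 (0.96) and Prdx4 (0.95), and on its second probe by the platelet chemokine Ppbp (0.94) and Prdx4 (0.93). Amigo2 was followed by the lipoxygenase Alox12 (0.95) and Gask1b (0.95), and Cd59a by Gask1b (0.95) and Rasl11a (0.95). Ackr1 was followed by the protease inhibitor gene Spink2 (0.94) and the receptor Slamf1 (0.93), and Slamf1 read 7.25 in Booreana AML1-ETO9a cells and 4.76 to 4.86 in the other groups.

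The fit was also read for genes outside the 9. Their lists too were drawn up with earlier results of these arrays known, so the shares called are descriptions. Each listed gene is given by its brightest tested probe, whereas the share of all tested probes counts every probe. Of 110 receptors, ligands, relatives and partners of the 9 genes, 105 had a probe and 64 were tested. In wild-type cells 7 rose and 2 fell with AML1-ETO9a, which is 14.1% of the 64 beside 4.32% of all tested probes. In Booreana cells 6 rose and none fell (9.38% beside 1.65%). Between the genotypes 7 were higher and 2 lower in Booreana cells with the control vector (14.1% beside 6.35%), and 7 higher and 1 lower with AML1-ETO9a (12.5% beside 3.74%). For the difference of the responses limma called 0 of 64, beside 0.0862% of all tested probes, and 6 had an unadjusted p under 0.05; with a replicate block within each genotype 1 was called, Gpc1 (1.52, adjusted p = 0.0464). The median difference of the 64 was 0.17, 0.25, 0.04 and 0.02 in the first 4 comparisons, close to that of all tested probes. All adjusted p-values are from limma's moderated test with Benjamini-Hochberg adjustment over 12760 probes.

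Of the 3 tested complement regulators outside the 9 genes, 2 rose with AML1-ETO9a in Booreana cells and 0 were called in wild-type cells (2 had an unadjusted p under 0.05 there). Cd59b, the second mouse CD59 gene and the neighbour of Cd59a on chromosome 2, read 5.50, 5.16, 5.45 and 4.84 on wild-type control arrays and 6.86, 6.13, 6.31 and 6.42 with AML1-ETO9a. On Booreana arrays Cd59b read 5.65, 6.63, 5.84 and 5.95 with the control vector and 8.33, 7.69, 7.18 and 9.24 with AML1-ETO9a. All Booreana AML1-ETO9a arrays lay above all others. Cd59b rose by 2.09 ± 0.36 with AML1-ETO9a in Booreana cells (adjusted p = 0.00518), and with AML1-ETO9a it was higher by 1.68 ± 0.36 in Booreana than in wild-type cells (adjusted p = 0.0126). In wild-type cells Cd59b was at least 1.63-fold above a control level that was not detected, and was not called (adjusted p = 0.0778). Whether the Cd59b probe also reads Cd59a transcripts was not tested. Cd55, which encodes decay-accelerating factor and acts earlier in the complement cascade, read 8.79, 9.04, 8.24 and 9.17 on wild-type control arrays and 9.94, 9.39, 9.72 and 9.66 with AML1-ETO9a. On Booreana arrays Cd55 read 8.90, 9.12, 8.76 and 8.75 with the control vector and 12.02, 11.17, 11.05 and 12.66 with AML1-ETO9a, above all other arrays. It rose by 2.84 ± 0.31 in Booreana cells (adjusted p = 0.000159), and with AML1-ETO9a it was higher by 2.05 ± 0.31 in Booreana cells (adjusted p = 0.000863). The difference between the responses was 1.98 ± 0.44 for Cd55 (adjusted p = 0.127) and 0.90 ± 0.50 for Cd59b (adjusted p = 0.814), so neither response was shown to differ between the genotypes. The third tested complement regulator, Cr1l, had no call, with a Booreana response of 0.55 ± 0.61.

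**Figure D3:**
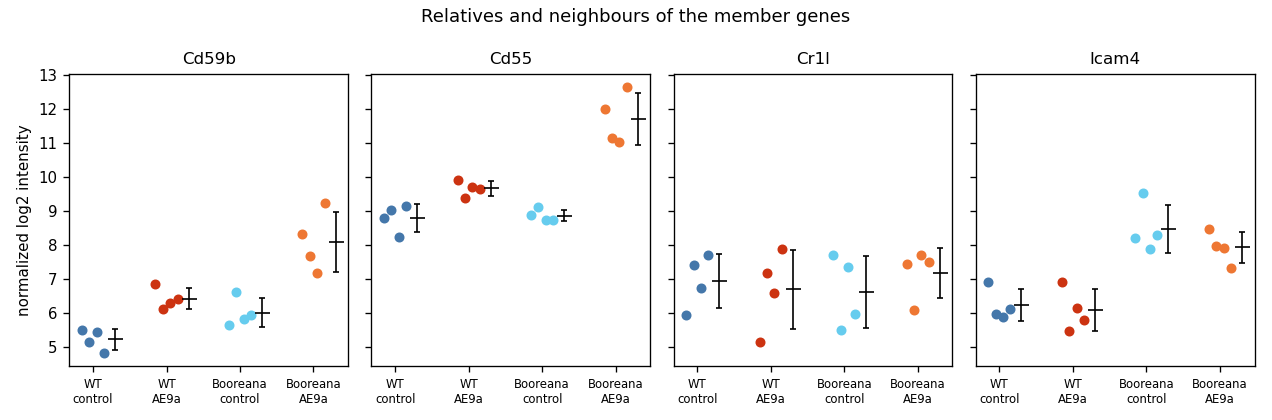
Normalized log2 intensity of Cd59b, Cd55 and Cr1l, the complement regulators outside the 9 genes, and of Icam4, the neighbour of Icam1, by group; each point is 1 of 16 arrays and bars give the mean and SD of 4. Cd59b and Cd55 are highest on all 4 Booreana AE9a arrays, Cr1l is spread in every group, and Icam4 is higher on Booreana arrays with either vector.

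Of 9 genes listed around ACKR1, its chemokine ligands and the other atypical receptors, 5 were tested, all of them ligands. Of these 5, 3 rose with AML1-ETO9a in each genotype. In wild-type cells Ackr1 itself stayed near the background. Ccl2 rose by 4.07 ± 0.52 in wild-type (adjusted p = 0.000218) and 3.08 ± 0.52 in Booreana cells (adjusted p = 0.00479). Ccl7 rose by 4.60 ± 0.72 (adjusted p = 0.00115) and 3.65 ± 0.72 (adjusted p = 0.0143), the second call being lost without Booreana control replicate 3 or Booreana AML1-ETO9a replicate 4. Cxcl1, a neutrophil attractant not detected in either control group, rose at least 5.06-fold in wild-type (adjusted p = 6.89e-06) and at least 1.39-fold in Booreana cells (adjusted p = 0.0143), the latter not called without background correction or in the authors' processed values. With AML1-ETO9a, Cxcl1 was lower in Booreana than in wild-type cells by 1.84 on the log2 scale (first minus second -1.84 ± 0.27, adjusted p = 0.000636), which is the reverse of Ackr1, at 6.23 ± 0.68 against 8.06 ± 0.26 (SD, n = 4). Ccl17 did not follow the oncogene but was higher in Booreana cells by 2.57 ± 0.52 with the control vector (adjusted p = 0.00569) and 2.65 ± 0.52 with AML1-ETO9a (adjusted p = 0.00775), and neither was called in the authors' processed values.

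The integrin receptors of VCAM1 and ICAM1 showed few calls. Of 8 listed subunits 4 were tested, and in the wild-type and Booreana responses limma called 0 of 4 (1 in each had an unadjusted p under 0.05). Itgb7, the beta7 partner of alpha4, was higher in Booreana cells by 3.10 ± 0.59 with the control vector (adjusted p = 0.0035) and by 2.65 ± 0.59 with AML1-ETO9a (adjusted p = 0.0179), whereas Vcam1, one of its ligands, was lower there. The second Itgb7 call was lost when replicate 2 or 4 of the wild-type AML1-ETO9a group or Booreana AML1-ETO9a replicate 4 was left out, and in the authors' processed values. Itgb1 differed by 0.48 ± 0.32 in the wild-type response (adjusted p = 0.66), and Itgb2, the shared beta2 subunit, by -1.35 ± 0.52 (adjusted p = 0.22), which was called without Booreana control replicate 2 and with array weights. Itgam, the alphaM subunit, differed by -0.67 ± 0.65 (adjusted p = 0.841). The probe of Itga4, the alpha4 subunit, was detected on 0 of 16 arrays and was not tested, and Itgal had no named probe used here.

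Among the other integrin subunits, Itgav rose by 0.98 ± 0.25 in the wild-type response (adjusted p = 0.033), a call lost without replicate 1, 2 or 3 of the wild-type control group, wild-type AML1-ETO9a replicate 2, 3 or 4, and without background correction, normalization between arrays, or in the authors' processed values. Itga2b, the platelet integrin alphaIIb, was higher in Booreana cells by 2.83 ± 0.45 with the control vector (adjusted p = 0.000851) and 2.42 ± 0.45 with AML1-ETO9a (adjusted p = 0.00538), while its other probe gave 1.70 ± 0.76 and 2.46 ± 0.76 and no call. Itgae, the alphaE subunit that pairs with beta7, was higher by 1.77 ± 0.29 in Booreana control cells (adjusted p = 0.00095) and by 1.54 ± 0.30 on its other probe (adjusted p = 0.00422).

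In the immunoglobulin superfamily 15 of 25 listed genes were tested. Icam4, a red cell adhesion molecule, read 6.93, 6.00, 5.90 and 6.12 on wild-type control arrays and 8.21, 9.53, 7.89 and 8.30 on Booreana control arrays. With AML1-ETO9a Icam4 read 6.94, 5.48, 6.15 and 5.82 in wild-type and 8.49, 7.99, 7.94 and 7.35 in Booreana cells, so the genotypes did not overlap with either vector. Icam4 was higher in Booreana cells by 2.25 ± 0.38 (adjusted p = 0.00138) and 1.85 ± 0.38 (adjusted p = 0.0105), the second not called in the authors' processed values, and its responses to AML1-ETO9a, -0.14 ± 0.38 and -0.54 ± 0.38, were not called. Icam1, its neighbour, had the opposite layout, being higher with AML1-ETO9a and overlapping between genotypes. Icam2 was not called in any comparison, with a wild-type response of -0.55 ± 0.18 (adjusted p = 0.109) that was called in the authors' processed values and with array weights. Nectin2 rose by 1.33 ± 0.31 in the wild-type response (adjusted p = 0.0218) and by 1.35 ± 0.31 on its other probe (adjusted p = 0.0183), the first call being lost without replicate 3 or 4 of the wild-type control group or wild-type AML1-ETO9a replicate 1, 2 or 4. Alcam was lower in Booreana control cells (-1.5 ± 0.29, adjusted p = 0.00439).

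Cd34, a sialomucin and progenitor marker of the same broad type as podoplanin, responded to AML1-ETO9a in wild-type cells with a rise of 2.60 ± 0.29 (adjusted p = 5.34e-05) and was higher by 1.91 ± 0.29 in Booreana control cells (adjusted p = 0.000521). The rise of Cd34 in Booreana cells was 1.27 ± 0.29 (adjusted p = 0.0349) and was lost without any of 8 arrays: wild-type control replicates 2 and 3, wild-type AML1-ETO9a replicate 3, Booreana control replicates 2 and 4, and Booreana AML1-ETO9a replicates 1, 3 and 4. Of the podoplanin partners, which include Ezr, Msn, Cd9 and Cd44, limma called 0 of 6 tested in any of the 5 comparisons, and 0 had an unadjusted p under 0.05. On Booreana control replicate 2 Msn read 4.82 and Cd9 10.92. The other Booreana control arrays read 10.44 to 11.67 and 12.27 to 13.22. Counts without that array are not given for this list. Gpc1, a glypican and thus a heparan sulfate proteoglycan like Sdc4, fell by 1.38 on the log2 scale in wild-type cells (-1.38 ± 0.24, adjusted p = 0.00253), against the direction of Sdc4, and was lower in Booreana control cells (-1.80 ± 0.24, adjusted p = 0.000178). The probe of Sdc1 was detected on 0 of 16 arrays. Amigo1 had no call, with responses of 0.69 ± 0.34 and -0.15 ± 0.34 (adjusted p = 0.404 and 0.884). The probe of Flrt2 was detected on 1 of 16 arrays and was not tested.

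Of the receptors of FLRT3, Unc5b fell by 1.32 on the log2 scale in wild-type cells (-1.32 ± 0.34, adjusted p = 0.0388), a call lost without replicate 2, 3 or 4 of the wild-type control group, wild-type AML1-ETO9a replicate 1, 3 or 4 or Booreana AML1-ETO9a replicate 3, and in 4 alternatives of processing. Adgrl1, which encodes latrophilin-1, was higher in Booreana control cells by 1.14 ± 0.24 (adjusted p = 0.00692). With AML1-ETO9a the Adgrl1 difference sat at the threshold, at least 1.35-fold (adjusted p = 0.0497), and was lost in 6 alternatives of processing and without any of 13 arrays, that is, all but wild-type control replicate 1, Booreana control replicate 2 and Booreana AML1-ETO9a replicate 2. Among the surface proteases Adam17, the sheddase of several adhesion molecules, rose by 0.90 ± 0.17 in wild-type cells (adjusted p = 0.00473), 1 of 7 tested.

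**Figure D4:**
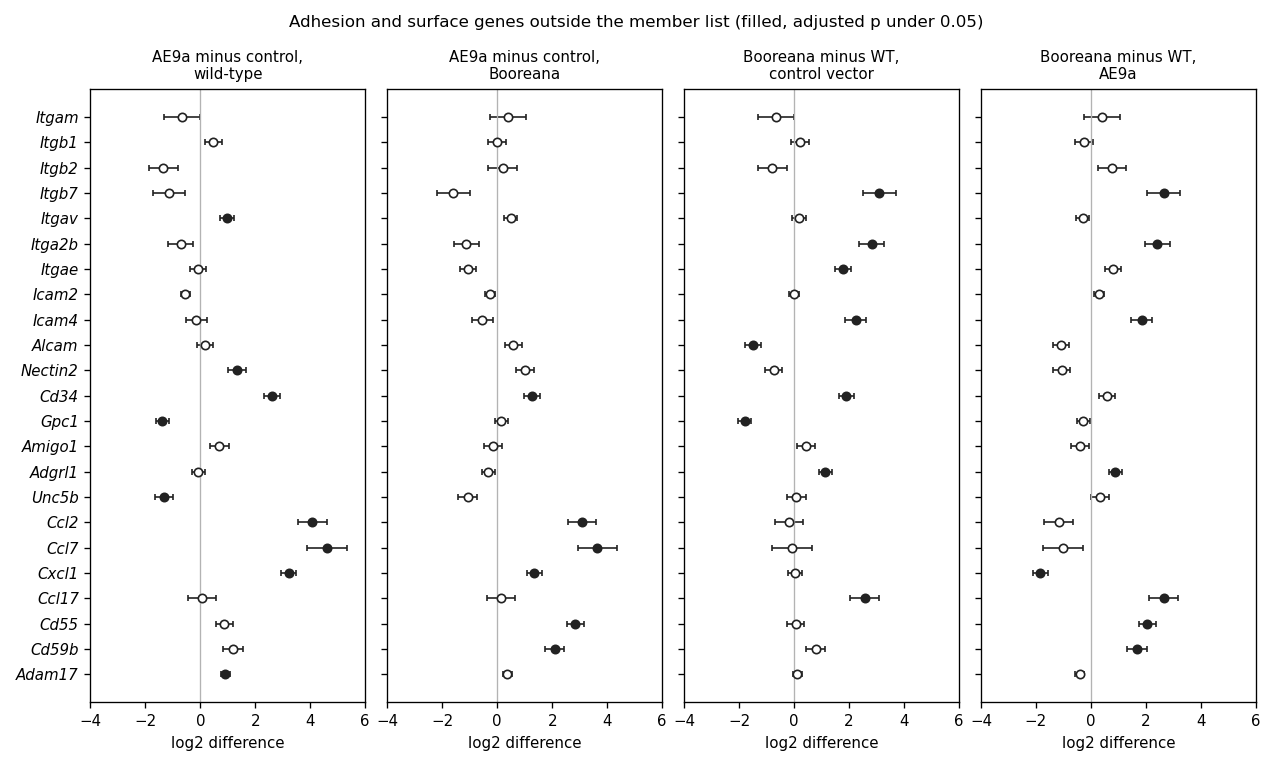
Log2 differences with SEs for named adhesion and surface genes outside the 9, in 4 comparisons; filled points have an adjusted p under 0.05. In wild-type cells the chemokine genes Ccl2, Ccl7 and Cxcl1 have the largest plotted rises with AML1-ETO9a (up to 4.60). Cxcl1 was not detected in either control group, so its plotted rises have no settled size. Cd55 and Cd59b are filled in both comparisons that involve Booreana AML1-ETO9a cells, and Itgb7, Itga2b and Icam4 are higher in Booreana cells with either vector.

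The 2 nearest protein-coding genes on each side of each of the 9 genes make 36 neighbours, of which 29 had a named probe and 16 were tested. Predicted genes were left out. In the response to AML1-ETO9a limma called 0 of 16 in wild-type cells (4 had an unadjusted p under 0.05), beside 4.32% of all tested probes. In Booreana cells 1 was called, Cd59b, beside 1.65% of all tested probes. Between the genotypes 3 were called with the control vector (beside 6.35% of all tested probes) and 2 with AML1-ETO9a (beside 3.74%). Beside Icam4 and Cd59b these were Nrgn, near Esam, higher in Booreana control cells by 1.79 ± 0.29 (adjusted p = 0.000963), and Slc38a4, next to Amigo2, higher by 0.84 ± 0.23 (adjusted p = 0.0438). No tested neighbour of Vcam1 was called; Extl2 beside it differed by -0.44 ± 0.17 between the genotypes with the control vector (adjusted p = 0.166).

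Markers of cell types known to make these proteins were read on the same arrays. The share of all tested probes called was 4.32% in the wild-type and 1.65% in the Booreana response. Between the genotypes it was 6.35% with the control vector and 3.74% with AML1-ETO9a. Of 9 endothelial markers with a probe, Cdh5 and Stab2 were not detected in any group, and the list mean of log2 signals ranged from 5.71 to 5.84 in wild-type control cells, 5.81 to 6.25 in wild-type AML1-ETO9a cells, 5.86 to 6.08 in Booreana control cells and 6.08 to 6.44 in Booreana AML1-ETO9a cells. Of 4 tested endothelial markers 1 was called in any comparison: Robo4, with means of 5.55 in Booreana and 4.86 in wild-type control cells (adjusted p = 0.0419), detected on 1 and 0 of 4 arrays, beside the higher Esam. With a replicate block within each genotype 1 more, Tek, was called higher in the Booreana response. Between the genotypes with AML1-ETO9a limma called 0 of the 4 endothelial markers, but 3 had an unadjusted p under 0.05. The list median there was 0.86, beside the higher Ackr1 and Esam in Booreana cells. In the wild-type and Booreana responses it was 0.40 and 0.54. Of the 9 endothelial markers, 2 and 5 were detected on some array of the wild-type control and AML1-ETO9a groups, and 5 and 6 in the Booreana groups. The stromal markers Col1a1, Col3a1, Pdgfra and Dcn were not detected in any group, and the list mean of its 10 probed genes stayed between 4.97 and 5.24 on all arrays. Monocyte and macrophage markers, 6 with a probe, had list means of 8.95 to 9.21 in wild-type control cells and 10.11 to 10.29 in wild-type AML1-ETO9a cells, beside the higher Icam1, Pdpn and Sdc4 there, and of 8.00 to 9.80 and 9.19 to 10.59 in the Booreana groups. Of 5 tested monocyte and macrophage markers, 3 were called higher in the wild-type response (list median 1.60) and 1 in the Booreana response (0.85), or 2 with a replicate block within each genotype. Between the genotypes 1 was called higher in Booreana control cells (list median 0.08) and 1 lower in Booreana AML1-ETO9a cells (-0.68). Vcam1 was lower in Booreana cells in both of these comparisons. In the wild-type response Vcam1 fell (-2.76), where the list median was 1.60. Erythroid markers, 8 with a probe, had list means of 5.63 to 6.45 and 5.87 to 6.34 in the wild-type groups and 7.20 to 7.85 and 7.45 to 8.00 in the Booreana control and AML1-ETO9a groups, beside the higher Ackr1, Esam and Icam4 in Booreana cells. Of these 8, 6 and 4 were detected on some array of the wild-type control and AML1-ETO9a groups, and 4 and 8 on some array of the Booreana control and AML1-ETO9a groups. Of the 4 tested, limma called 0 in the Booreana response, and 0 had an unadjusted p under 0.05 (list median 0.06). In the wild-type response 1 was called higher. Between the genotypes 3 were called higher in Booreana cells with the control vector (list median 3.01) and 2 with AML1-ETO9a (2.05). Mast cell and basophil markers had list means of 7.77 to 9.15 and 7.33 to 8.70 in the wild-type groups and 8.59 to 9.12 and 8.57 to 10.85 in the Booreana groups, and megakaryocyte markers 6.37 to 7.84, 7.74 to 8.11, 7.64 to 9.10 and 8.23 to 9.51 in the same order. Of 8 tested mast cell and basophil markers, 1 rose and 2 fell in the wild-type response, and 2 rose and 2 fell in the Booreana response. Between the genotypes 2 were called higher in Booreana cells with either vector. Of 6 tested megakaryocyte markers, 2 rose in the wild-type response and 0 were called in the Booreana response (3 with a replicate block within each genotype). In Booreana cells 2 were called higher with the control vector and 1 with AML1-ETO9a. The part of these cell types in the differences of the 9 genes was not tested. Of the progenitor markers of the sorted cells, Flt3 was not detected in any group and 5 of the 6 with a probe were detected in every group, and Kit had no named probe used here. Of the 5 tested, 2 rose in the wild-type and 1 in the Booreana response. In Booreana cells 3 were called higher with the control vector and 1 with AML1-ETO9a. Of 7 B and T cell markers with a probe, Ebf1, Pax5, Cd3e and Cd8a were not detected in any group.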

How the data were processed

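On each of 16 arrays 25697 probes had an intensity, not normalized per the file headers, and a deposited detection p-value; what software wrote them is not stated in these sources. The authors' processed values, deposited apart, have the range of log2 values and a median of 8.34 on every array; the submitters' processing notes name lumi without version or settings, so the exact scale is unknown and they served as an alternative only.

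Intensities were background-corrected by normexp, with the negative control level inferred from the detection p-values (offset 16), log2-transformed and quantile-normalized (limma 3.58.1, R 4.3.3). The 12760 probes detected at p under 0.05 on at least 4 arrays were fitted with 4 group means (lmFit, eBayes), Benjamini-Hochberg adjustment and a threshold of 0.05, and 5 comparisons were drawn. The fit was tested on simulated data. Equal replicate numbers of the labels paired the arrays within each genotype: deviations from the group means correlated in 4 of 4 wild-type pairs (r from 0.17 to 0.71) and 4 of 4 Booreana pairs (0.36 to 0.42) at over 0.1, but in 7 of 16 pairs between the genotypes (-0.61 to 0.33). The labels do not say what a number shares. A replicate block within each genotype was added as an alternative after seeing the data; it cannot estimate differences between genotypes. Probe names came from the platform annotation: 23978 probes had 1 symbol, 0 had several and 1719 had none. A gene with several probes is given by its brightest tested probe. Against a group detected on no array a fold is given only as a bound, and a fitted log2 difference printed there is no settled size. The bound is the bright group's mean over the dim group's mean, each dim array set to its own value or its lowest detected signal, whichever was higher.

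The 9 genes and the lists of other genes were chosen with earlier results of these data known. Named beside the 9 genes were up to 4 called genes of each list and comparison with the smallest adjusted p, fixed integrin partners and family members, and the 2 named genes most like each probe; marker genes, neighbours and Cr1l were named outside that rule. The array count limits precision. Alternatives were no background correction, no normalization, an offset of 50, no detection filter, a detection p under 0.01, the authors' values, a replicate block, array weights and leaving out each array. Promoters came from RefSeq (GRCm38.p6). Gene coordinates are not printed, because no source used here names the build of the array annotation.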

Additional observations from a re-analysis of the deposited data

Results flagged for a closer look

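For 2 of the 9 genes the fitted responses to AML1-ETO9a lay apart between the genotypes. For Vcam1 the Booreana response exceeded the wild-type response by 2.94 ± 0.39 on the log2 scale (-2.76 in wild-type, 0.18 in Booreana cells, where its probe was detected on 1 of 4 control arrays and 0 of 4 AML1-ETO9a arrays), and a signal at background cannot show that the responses differed. For Ackr1 it exceeded it by 2.61 ± 0.43 (0.61 and 3.22, the first of no settled size), with the probe detected on 0 of 4 wild-type control arrays and 2 of 4 wild-type AML1-ETO9a arrays. That cannot show that the responses differed either. Both genes were picked for such differences, so these sizes are descriptions.

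In 4 groups a single array lay far from the other 3. Icam1 read 8.73 on wild-type control replicate 3 and 9.28 to 9.35 on the others. Amigo1 read 6.57 on Booreana control replicate 2 and 5.33 to 5.47 on the others. Itgb2 read 6.82 on that same array and 9.46 to 9.79 on the others. Itgae read 5.46 on wild-type AML1-ETO9a replicate 2 and 5.20 to 5.24 on the others, in a group where it was not detected. These are 4 of 136 groups examined, over 34 probes, fewer than the 1 in 20 that chance gives.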

How the results depend on the processing

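Over all comparisons, changing the processing or leaving out 1 array left 1178 values of the 9 genes on the same side of the threshold with the same direction, ended 32 calls, added 12 and moved 8 uncalled values; for the other named genes these counts were 2675, 63, 22 and 59. No called value changed sign. In the counts of probes called, array weights, which gave Booreana control replicate 2 a weight of 0.129, raised the wild-type response from 551 to 1125, the Booreana response from 210 to 532, the genotype difference from 810 to 1289 with the control vector and from 477 to 739 with AML1-ETO9a, and the difference of the responses from 11 to 59. Without normalization between arrays the wild-type response had 336 probes (229 higher and 107 lower, against 315 and 236) and the difference of the responses 6; that last count was 21 without background correction, 19 with an offset of 50, 28 in the authors' processed values and 17 with a replicate block. Of the 9 genes, 1 was called between the genotypes with the control vector in the authors' processed values, against 3. Causes were not tested.

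Leaving out 1 array in turn gave 355 to 770, 139 to 228, 566 to 827, 319 to 624 and 6 to 14 probes in the 5 comparisons, and 8 to 8, 6 to 7, 2 to 4, 3 to 6 and 1 to 2 of the 9 genes. The lowest wild-type count and the lowest control-vector count came without wild-type control replicate 3, the lowest Booreana count without Booreana control replicate 3, the lowest AML1-ETO9a count without wild-type AML1-ETO9a replicate 3 and the lowest count of the last comparison without wild-type AML1-ETO9a replicate 2.

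With a replicate block within each genotype, chosen after seeing the data, 959, 453 and 37 probes were called in the wild-type response, the Booreana response and their difference, and 8, 7 and 2 of the 9 genes. Among the named receptors, ligands, relatives and partners it changed 1 call, that of Gpc1 in the last. It also added calls among the marker genes, among them Mrc1, Ppbp and Tek in the Booreana response. With 1 replicate block across the genotypes 648, 252, 928, 511 and 17 probes and 8, 7, 3, 6 and 2 of the 9 genes were called. Probes at background limit Vcam1 in Booreana cells and, in wild-type control cells, Amigo2 and Ackr1 (detected on 0 of 4 arrays), Esam and Flrt3 (1 of 4) and Sdc4 (2 of 4), where differences from these groups shrink with a larger offset.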
